A study of Mus musculus with 9 samples.

Results

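The potassium channel genes described here were all rows of the deposited count table whose mouse gene symbol starts with Kcn, which took in the pore-forming subunits and the accessory subunits so named. The rule found 64 of the 18094 genes in the table. The libraries were poly(A) RNA-seq of cardiac endothelium, isolated from heart tissue with magnetic beads. There were 3 groups of 3 libraries: BPH/2J mice (an inbred line with high blood pressure) at 4 weeks, BPH/2J mice at 22 weeks, and BPN/3J mice (the line with normal blood pressure bred alongside it) at 22 weeks. Each blood pressure state was represented by a single inbred line, and a 4-week BPN/3J group was not analysed here, so line and pressure cannot be told apart. The labels do not say whether replicates were separate animals, so the p-values refer only to library-to-library spread, part or all of which could be technical.

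Potassium channels let potassium ions leave or enter a cell along their gradient and so set the membrane potential. In endothelium a more negative potential draws calcium in and spreads through gap junctions to the smooth muscle of the vessel wall, where it favours relaxation. Voltage-gated channels open on depolarization, inward rectifiers hold the resting potential and respond to extracellular potassium or to ATP, two-pore domain channels carry background current, and the small- and intermediate-conductance calcium-activated channels couple endothelial calcium to hyperpolarization.

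Library totals lay between 28806840 and 32913813 counts, so that 3 counts, the upper 95% limit when a gene has no count, corresponded to 0.0911 to 0.104 CPM (counts scaled to a common library total), for counting error only. The endothelial list (Cdh5, Pecam1, Kdr and others) summed to 10300 to 10700 CPM in BPN/3J, 12200 to 12900 CPM in 4-week and 13100 to 13200 CPM in 22-week BPH/2J. Of its 10 genes 6 were higher and 2 lower in 22-week BPH/2J than in BPN/3J, where all genes tested had 19.8% higher and 18.2% lower. The first 3 markers of the cardiomyocyte, pericyte and smooth muscle, fibroblast, macrophage and lymphocyte lists were also above 0 in every library, so transcripts of other heart cells were present. The 4-week BPH/2J replicate 1 stood apart from the other 4-week libraries in its mitochondrial share (2.63% of counts against 1.19% and 1.33%) and in several channel genes. Values without it are given where it changed a call of a gene described below or moved a described result by more than 1.5 times. They are also given for Kcna5 and Kcnk6. Some members whose values are not described also gained calls without it.

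A single gene, Kcna5, held 43.8% to 69.5% of the summed potassium channel signal in each library. Kcna5 encodes the voltage-gated channel Kv1.5. On the RPKM scale (reads scaled for gene length and library total, so that genes can be compared) it averaged 87.3 RPKM over the 9 libraries and ranked 540 of all 18094 genes. Of the members described below, Kcnk6 (the two-pore channel TWIK2) averaged 7.71 RPKM, Kcnq1 (Kv7.1) 6.03, Kcnj14 (the inward rectifier Kir2.4) 5.34 and Kcnj8 (Kir6.1, a pore of ATP-sensitive channels) 5.03 RPKM. In all 6 members had a mean of at least 5 RPKM. A further 10 members lay between 1 and 5 RPKM, 31 between 0.1 and 1, and 17 under 0.1. The ranges of Kcnk6 (4.98 to 11.1 RPKM over the libraries), Kcnq1 (4.61 to 8.66) and Kcnj8 (3.11 to 7.1) overlapped, so the order among them did not exceed their spread, whereas the lowest Kcna5 library (54.2 RPKM) lay above the highest of Kcnk6 (11.1 RPKM).

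**Figure D1:**
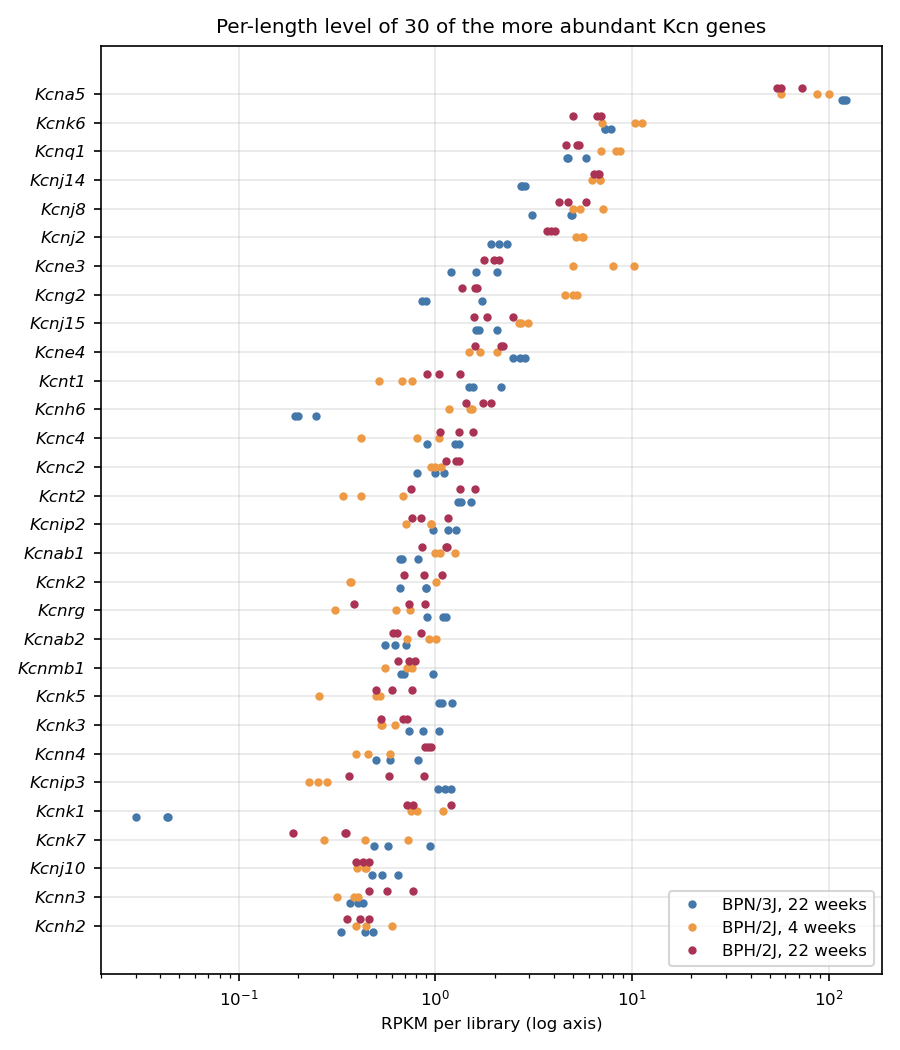
RPKM of 30 of the more abundant Kcn genes (vertical axis, by mean) in each library (points, coloured by group) on a log horizontal axis. Kcna5 stands apart at 54.2 to 123 RPKM, and the BPN/3J points of Kcnh6 and Kcnk1 lie far left of both BPH/2J groups.

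The upstream sequences of 4 members are shown, and they carry no information on differences between the lines. Kcna5 was chosen as the most abundant member and Kcnj2 as an inward rectifier known from endothelium. Kcnh6 and Kcnk1 had the largest log2 differences in RNA between the 22-week lines among the 51 tested members. They are the 250 bases before the annotated start in RefSeq (build GRCm38.p6, the C57BL/6J reference, not BPH/2J or BPN/3J sequence), 5′ to 3′ on the gene's own strand. Capitals mark the letters CACCC (a Krüppel-like factor type motif) and GGGCGG (a GC box) on either strand, that is also GGGTG and CCGCCC.
Kcna5 (chr6:126535556-126535805, minus strand): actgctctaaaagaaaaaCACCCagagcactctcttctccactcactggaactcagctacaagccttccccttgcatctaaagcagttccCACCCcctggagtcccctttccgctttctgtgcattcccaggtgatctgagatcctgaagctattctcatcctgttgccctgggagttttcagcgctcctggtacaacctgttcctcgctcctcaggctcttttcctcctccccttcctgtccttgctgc
Kcnj2 (chr11:111065914-111066163, plus strand): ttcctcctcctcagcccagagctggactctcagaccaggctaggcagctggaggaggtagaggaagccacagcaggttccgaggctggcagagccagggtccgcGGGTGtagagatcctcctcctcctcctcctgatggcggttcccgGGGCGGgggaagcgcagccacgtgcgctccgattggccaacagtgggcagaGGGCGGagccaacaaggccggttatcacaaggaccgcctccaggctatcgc
Kcnh6 (chr11:106007898-106008147, plus strand): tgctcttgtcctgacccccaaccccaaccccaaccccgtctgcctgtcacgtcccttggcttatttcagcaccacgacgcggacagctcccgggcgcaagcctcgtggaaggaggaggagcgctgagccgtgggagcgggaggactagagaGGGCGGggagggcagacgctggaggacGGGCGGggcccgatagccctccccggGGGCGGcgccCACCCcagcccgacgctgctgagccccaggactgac
Kcnk1 (chr8:125994852-125995101, plus strand): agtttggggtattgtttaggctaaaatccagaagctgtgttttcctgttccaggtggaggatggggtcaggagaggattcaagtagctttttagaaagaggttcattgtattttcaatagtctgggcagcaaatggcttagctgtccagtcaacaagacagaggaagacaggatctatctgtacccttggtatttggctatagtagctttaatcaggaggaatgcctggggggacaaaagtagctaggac
Windows were found for 48 of the 64 members, 70 windows in all. CACCC was in 72.9% of them and in 52.0% of the 32851 windows of all genes, GGGCGG in 41.4% and 32.7%, TATAAA in 2.86% and 12.4%, and CCGGAA in 5.71% and 12.0%, each counted on both strands. Median GC content was 58.2% in the members' windows and 52.4% in all windows. The 4 windows differed among themselves: Kcnh6 held 21 CG dinucleotides and 3 GC boxes, Kcnj2 held 14 and 2, Kcna5 held 3 and 0, and Kcnk1 had neither a CG dinucleotide nor a match to these 4 motifs. These matches describe letters in a reference sequence and not bound sites.

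The first question was how the 2 lines differed at 22 weeks. Of the 64 members, 51 passed the low-count filter and were tested with edgeR's quasi-likelihood test, and a gene was called where its adjusted p (Benjamini-Hochberg over the 15277 genes tested) was under 0.05. In BPH/2J 8 members were higher and 10 lower, 35.3% of those tested. Over all genes tested 38.0% were called (19.8% higher and 18.2% lower), so the members were called about as often as other genes. Their median absolute log2 difference was 0.5 against 0.26 over all genes, while the median signed difference was 0.08 against 0.02. Most members had low levels, with 31 of the 64 between 0.1 and 1 RPKM and 17 under 0.1. All genes were not matched to them by level, and the part of level in the larger absolute median was not tested. The groups did not overlap for 26 members (51.0%, against 55.7% of all genes). The count of lower members depended on single libraries: it was 2 without BPN/3J replicate 3, 6 without BPN/3J replicate 2, 4 without 22-week BPH/2J replicate 3, 5 without 22-week BPH/2J replicate 2, and 14 without 4-week BPH/2J replicate 1. The higher members numbered 7 to 9 over the same omissions.

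The second question was how BPH/2J endothelium differed between 22 and 4 weeks. At 22 weeks 9 members were higher and 9 lower, 35.3% of those tested against 41.0% of all genes (19.9% higher and 21.1% lower). The median absolute difference was 0.54 on the log2 scale against 0.28 over all genes, again not matched by level. For 21 members (41.2%, against 51.2% of all genes) the groups did not overlap. Without 22-week BPH/2J replicate 1 the count of higher members was 5. In the remaining comparison, 4-week BPH/2J against 22-week BPN/3J, 16 members were higher and 10 lower, 51.0% against 53.1% of all genes (27.8% higher and 25.3% lower), and the groups did not overlap for 32 members (62.7%, against 59.2% of all genes). Here line and age both differed and cannot be told apart. The 3 comparisons share libraries, so their lists of called members are not independent of each other.

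**Figure D2:**
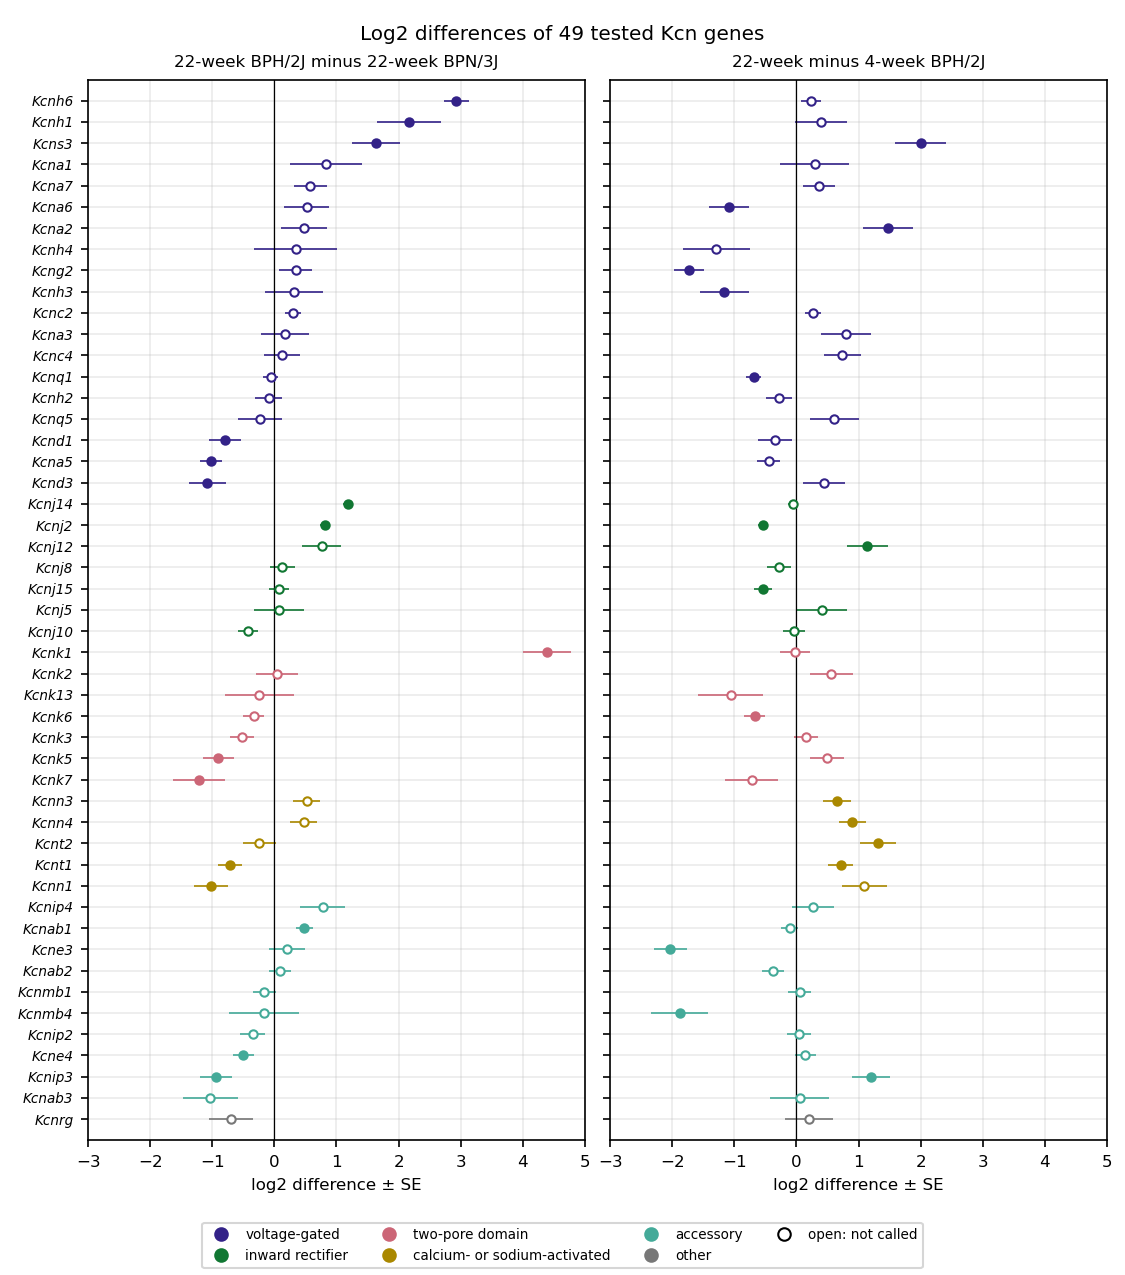
Log2 difference (horizontal axis, point) and its standard error (bar) of 49 of the 51 tested Kcn genes, grouped by family, for 22-week BPH/2J minus BPN/3J (left) and 22-week minus 4-week BPH/2J (right); filled points have an adjusted p under 0.05. Kcnk1 and Kcnh6 lie furthest right on the left panel, and Kcne3 and Kcnmb4 furthest left on the right panel.

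Voltage-gated pore-forming subunits made up 26 members, of which 21 were tested. Against BPN/3J at 22 weeks 4 were higher and 4 lower (median log2 difference 0.32), and between the ages 3 were higher and 4 lower at 22 weeks (median 0.26). Without BPN/3J replicate 3 or 22-week BPH/2J replicate 2 the lower members between the lines numbered 1 and 2. With age there was 1 higher member without 22-week replicate 1, and there were 2 lower members without 22-week or 4-week replicate 3. The called shares were 38.1% between the lines and 33.3% with age, against 38.0% and 41.0% of all genes tested. Calls thus went in both directions and were no more frequent with age, and about as frequent between the lines, as over all genes. The most abundant gene of the family, Kcna5, was lower in BPH/2J.

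Kcna5 (ENSMUSG00000045534, chromosome 6) encodes Kv1.5, a delayed rectifier also known from vascular smooth muscle and atrial muscle. It measured 362, 381 and 353 CPM in BPN/3J, 170, 305 and 262 CPM in 4-week BPH/2J, and 167, 215 and 159 CPM in 22-week BPH/2J. All BPN/3J libraries lay above all BPH/2J libraries of either age. At 22 weeks it was 2.03-fold lower in BPH/2J than in BPN/3J (log2 difference -1.02 ± 0.18, standard error; adjusted p = 0.00176), and at 4 weeks 1.49-fold lower than in BPN/3J (adjusted p = 0.0219, and 0.0632 without BPN/3J replicate 2). Without 4-week replicate 1 the latter log2 difference was -0.37 in place of -0.57 (adjusted p = 0.0232). The difference between the ages of BPH/2J was -0.45 ± 0.18 (adjusted p = 0.0739). The 4-week replicate 1 was the only 4-week library within the 22-week range, and without it the difference was -0.65 (adjusted p = 0.00113). It also passed with DESeq2 (adjusted p = 0.0421), without 22-week BPH/2J replicate 2 (0.0405) and with a replicate block (0.043). In bulk RNA, fewer cells of a type and less RNA per cell cannot be told apart, here and in all that follows. The cardiomyocyte list (14 genes, 13 tested) was lower in BPH/2J too, at 541 to 656 CPM in the 22-week BPH/2J libraries against 929 to 1140 CPM in BPN/3J. Of its genes 9 were lower and 0 higher, where all genes tested had 18.2% lower and 19.8% higher. The pericyte and smooth muscle list (11 genes) had 2 lower and 1 higher, with sums of 1460 to 1760 CPM against 1270 to 1480 CPM in BPN/3J. The part of either list in the Kcna5 difference was not tested.

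Kcng2 and Kcns3 encode electrically silent subunits, which form no channel alone and modify the channels they join, and both differed with age. Kcng2 (chromosome 18) was at 0.641, 0.625 and 1.23 CPM in BPN/3J, 3.65, 3.27 and 3.56 CPM in 4-week BPH/2J, and 0.94, 1.13 and 1.1 CPM in 22-week BPH/2J. The 4-week libraries were all above the others, and the deposited length of 705 bases makes the gene's RPKM uncertain. The gene D330025C20Rik, on the opposite strand, overlaps 9.1% of the Kcng2 exon bases in the GENCODE M21 annotation. Kcng2 fell by 1.73 ± 0.24 on the log2 scale from 4 to 22 weeks (3.31-fold, adjusted p = 0.000295). Between the 22-week lines the difference was not called (log2 difference 0.34 ± 0.27, adjusted p = 0.339), though without BPN/3J replicate 3 the difference was 0.73 (adjusted p = 0.0372). Kcns3 was instead high in 22-week BPH/2J alone, at 1.62, 1.09 and 1.61 CPM, against 0.27, 0.417 and 0.702 CPM in BPN/3J and 0.163, 0.345 and 0.553 CPM at 4 weeks. It was 3.11-fold higher than in BPN/3J (adjusted p = 0.00844) and 4.01-fold higher than at 4 weeks (adjusted p = 0.00307).

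Kcnq1 (ENSMUSG00000009545, chromosome 7) encodes Kv7.1, which pairs with the Kcne subunits. Its levels were 14.8, 14.8 and 18.2 CPM in BPN/3J, 21.2, 27.3 and 25.8 CPM in 4-week BPH/2J, and 13.9, 16.3 and 15.7 CPM in 22-week BPH/2J. The 4-week libraries lay above all others, while the 22-week lines overlapped (log2 difference -0.06 ± 0.12, adjusted p = 0.736). Kcnq1 fell 1.62-fold from 4 to 22 weeks (adjusted p = 0.00116). In GENCODE M21, 2.96% of its exon bases are overlapped by the antisense RNA Kcnq1ot1, and since the strand setting of the counting was not given, reads of such partners cannot be told apart.

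Among the ether-à-go-go channels, Kcnh6 (Erg2) showed the greatest difference between the lines of this family's tested genes. It stood at 0.743, 0.73 and 0.912 CPM in BPN/3J, 5.45, 5.72 and 4.33 CPM in 4-week BPH/2J, and 5.16, 6.24 and 6.89 CPM in 22-week BPH/2J. Both BPH/2J groups were far above BPN/3J and overlapped each other. Kcnh6 was 7.64-fold higher in BPH/2J at 22 weeks (log2 difference 2.93 ± 0.2, adjusted p = 2.53e-06) and 6.47-fold higher at 4 weeks (adjusted p = 2.31e-06), with no call between the ages (log2 difference 0.24, adjusted p = 0.255). Its relative Kcnh1 (Eag1) had less signal, 0.203, 0.174 and 0.316 CPM in BPN/3J against 0.75, 0.827 and 0.829 CPM at 4 weeks and 0.713, 0.547 and 1.9 CPM in 22-week BPH/2J. It was 4.52-fold higher at 22 weeks (adjusted p = 0.00746), and its log2 difference of 2.17 was 1.44 without 22-week BPH/2J replicate 3 (adjusted p = 0.0146), its highest library. It was 3.44-fold higher at 4 weeks (adjusted p = 0.0156, and 0.0561 without BPN/3J replicate 2). Kcnh2 (Erg1), the cardiac repolarizing channel, had mean levels of 2.06 CPM in BPN/3J, 2.34 CPM at 4 weeks and 1.94 CPM in 22-week BPH/2J and was called in none of the comparisons.

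Kcnd3 and Kcnd1, of the transient outward Kv4 channels, were also lower in BPH/2J at 22 weeks. Kcnd3 (Kv4.3, the transient outward channel of cardiac muscle) was at 1.69, 1.95 and 2.32 CPM in BPN/3J, 0.392, 0.586 and 1.07 CPM at 4 weeks, and 1.04, 0.804 and 0.967 CPM in 22-week BPH/2J. It was 2.11-fold lower in BPH/2J at 22 weeks (adjusted p = 0.0174, and 0.0618 to 0.0665 without BPN/3J replicate 3 or 22-week BPH/2J replicate 2). Without 4-week replicate 3, its rise with age also passed (log2 difference 0.94, adjusted p = 0.0451). Kcnd1 (Kv4.1) measured 1.92, 1.25 and 1.61 CPM in BPN/3J, 0.946, 1.41 and 1.14 CPM at 4 weeks and 0.681, 0.998 and 1.06 CPM in 22-week BPH/2J. It was 1.74-fold lower at 22 weeks (adjusted p = 0.0324), a call lost without BPN/3J replicate 1 or 3 or 22-week BPH/2J replicate 1 or 2 (0.0599 to 0.116) and with a replicate block (0.0557). The cardiomyocyte list was lower in BPH/2J as given above, and its part in these differences was not tested.

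Of the Kv1 genes other than Kcna5, Kcna2 (Kv1.2) and Kcna6 (Kv1.6) differed with age in opposite directions, both at low levels. Kcna2 was at 0.878, 0.591 and 0.877 CPM in BPN/3J, 0.489, 0.379 and 0.307 CPM at 4 weeks, and 1.69, 0.998 and 0.58 CPM in 22-week BPH/2J. It was 2.76-fold higher at 22 than at 4 weeks (adjusted p = 0.0144, and 0.0582 to 0.0633 without 4-week replicate 3 or 22-week replicate 1). Kcna6 was at 0.304, 0.486 and 0.807 CPM in BPN/3J, 1.31, 1.45 and 2.12 CPM at 4 weeks, and 0.843, 0.837 and 0.612 CPM in 22-week BPH/2J. The 4-week libraries were the highest, and Kcna6 fell 2.13-fold with age (adjusted p = 0.0193, and 0.0768 to 0.0917 without 4-week or 22-week replicate 3). An antisense gene, Gm26673, overlaps 39.6% of the Kcna6 exon bases in GENCODE M21, so its value is uncertain. Kcna5, Kcna1 and Kcna6 follow each other on chromosome 6 with no protein-coding gene between them in that annotation. Kcna5 was called lower and Kcna1 and Kcna6 not called between the 22-week lines (log2 differences 0.83 for Kcna1, adjusted p = 0.284, and 0.52 for Kcna6, adjusted p = 0.282), so these neighbours were not called together. Kcnq5 (Kv7.5) was low in all libraries, at 0.153 to 0.486 CPM, and was not called in any comparison.

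Inward rectifiers numbered 10, of which 7 were tested. Against BPN/3J, 2 were higher and 0 lower in 22-week BPH/2J, and 3 were higher and 0 lower in 4-week BPH/2J. These were 28.6% and 42.9% of those tested, where 38.0% and 53.1% of all genes were called. Between the ages 42.9% were called, against 41.0% of all genes. With age 1 was higher and 2 lower, with 0 higher without 22-week replicate 1 or 4-week replicate 2 and 1 lower without 22-week replicate 1 or 3. The lists of 22-week and 4-week BPH/2J share the BPN/3J libraries.

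Kcnj14 (ENSMUSG00000058743, chromosome 7), encoding Kir2.4, measured 7.26, 7.54 and 7.58 CPM in BPN/3J, 17.9, 16.8 and 18.2 CPM in 4-week BPH/2J, and 16.5, 17.4 and 17.2 CPM in 22-week BPH/2J. The spread within each group was small, and both BPH/2J groups were well above BPN/3J while overlapping each other. It was 2.28-fold higher in BPH/2J at 22 weeks (log2 difference 1.19 ± 0.08, adjusted p = 2.4e-06) and 2.37-fold higher at 4 weeks (adjusted p = 9.15e-07). The difference between the ages was -0.05 ± 0.08 (adjusted p = 0.622).

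Kcnj2 (ENSMUSG00000041695, chromosome 11) encodes Kir2.1, the main inward rectifier known from endothelium. Its levels were 11.5, 10.8 and 12.7 CPM in BPN/3J, 27.9, 30.8 and 30.9 CPM in 4-week BPH/2J, and 21.5, 19.5 and 20.5 CPM in 22-week BPH/2J. The 3 groups did not overlap, with 4-week BPH/2J highest and BPN/3J lowest. Kcnj2 was 1.75-fold higher in BPH/2J at 22 weeks (log2 difference 0.81 ± 0.08, adjusted p = 5.46e-05) and 2.55-fold higher at 4 weeks (adjusted p = 7.92e-07). Within BPH/2J it fell by 0.54 ± 0.08 on the log2 scale from 4 to 22 weeks (1.46-fold, adjusted p = 0.000522). The summed level of the endothelial list was also higher in BPH/2J, as given above, but its genes went both ways. At 4 weeks 3 of its 10 genes were higher and 2 lower than in BPN/3J (median log2 difference -0.03). Over all genes tested 27.8% were higher and 25.3% lower in that comparison. The part of the endothelial list in the Kcnj2 and Kcnj14 differences was not tested. The neighbour of Kcnj2, Kcnj16, with no protein-coding gene between them, had too few counts to be tested.

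Kcnj8 (Kir6.1), the pore of vascular ATP-sensitive channels, was not called in any comparison. It measured 6.89, 11.2 and 10.8 CPM in BPN/3J, 15.3, 11.2 and 12.0 CPM at 4 weeks, and 9.08, 10.1 and 12.4 CPM in 22-week BPH/2J. The 22-week lines overlapped, as did the ages of BPH/2J, and between the 22-week lines the log2 difference was 0.13 ± 0.2 (adjusted p = 0.625). Its partner Abcc9, the sulphonylurea receptor SUR2, did change with age: it averaged 75.6 ± 9.23 CPM (SD, n = 3) at 4 weeks and 44.5 ± 5.91 CPM at 22 weeks in BPH/2J, a fall of 0.77 on the log2 scale (adjusted p = 0.00164), with 50.5 ± 8.84 CPM in BPN/3J. Both genes are also known from pericytes. The pericyte and smooth muscle list summed to 1270 to 1480 CPM in BPN/3J, 1470 to 1830 CPM at 4 weeks and 1460 to 1760 CPM in 22-week BPH/2J. Of its 11 genes 1 was higher and 1 lower between the ages, where all genes tested had 19.9% higher and 21.1% lower.

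Kcnj15 (Kir4.2) was highest in the 4-week libraries, at 19.5, 18.2 and 18.4 CPM, against 10.3, 16.3 and 12.0 CPM in 22-week BPH/2J and 13.9, 11.6 and 10.9 CPM in BPN/3J. It fell 1.45-fold with age (adjusted p = 0.0174, and 0.0659 to 0.069 without 22-week replicate 1 or 3). Kcnj12 (Kir2.2) had low levels of 0.54, 0.764 and 0.351 CPM in BPN/3J, 0.359, 0.345 and 0.553 CPM at 4 weeks, and 1.07, 0.998 and 0.741 CPM in 22-week BPH/2J. Its 22-week BPH/2J libraries lay above all 4-week libraries, 2.21-fold (adjusted p = 0.0174, and 0.0633 to 0.0646 without 4-week replicate 2 or 22-week replicate 1). Between the lines the difference was 0.76 on the log2 scale (adjusted p = 0.0823, and 0.0452 without BPN/3J replicate 2).

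**Figure D3:**
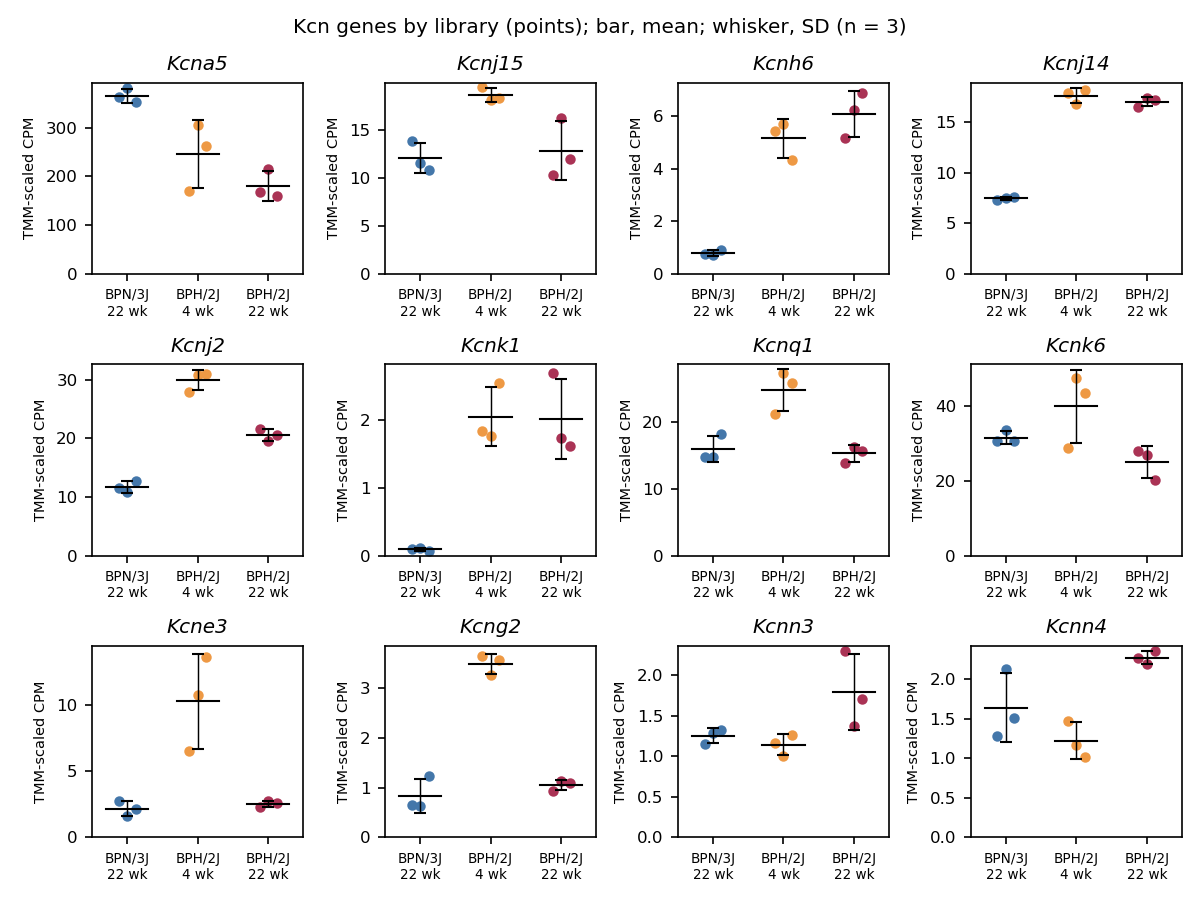
TMM-scaled CPM (vertical axes, each from 0) of 12 Kcn genes in each library (points) by group, with the mean (bar) and SD (whisker, n = 3). Kcnh6, Kcnj14 and Kcnk1 are high at both BPH/2J ages, Kcne3 and Kcng2 are high at 4 weeks, and Kcna5 is highest in BPN/3J.

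Two-pore domain channels numbered 8, with 7 tested. Between the 22-week lines 1 was higher and 2 were lower in BPH/2J (median log2 difference -0.33), and with age 0 were higher and 1 lower (median -0.03). These were 42.9% and 14.3% of those tested, against 38.0% and 41.0% of all genes. The lower members between the lines numbered 0 without BPN/3J replicate 2 or 22-week BPH/2J replicate 2 or 3, and 1 without BPN/3J replicate 3, 4-week replicate 2 or 22-week replicate 1. Without 4-week replicate 1 they numbered 4, and 1 member was higher with age. Without BPN/3J replicate 1 the members lower with age numbered 2.

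Kcnk1 (TWIK1), a background channel with small currents, had the greatest difference between the lines of all 51 tested members. The BPN/3J libraries held 3, 3 and 2 counts (0.101, 0.104 and 0.0702 CPM), at or under the 3-count limit. The BPH/2J libraries were at 1.83, 1.76 and 2.55 CPM at 4 weeks and 2.69, 1.74 and 1.61 CPM at 22 weeks. Summed over libraries this was 187 counts in 22-week BPH/2J against 8 in BPN/3J, a depth-scaled ratio of 21.9 (exact 95% interval 10.9 to 51.4, counting error only), with an adjusted p of 1.77e-05. For 4-week BPH/2J it was 190 counts against 8, a ratio of 22.4 (11.1 to 52.6, adjusted p = 6.6e-06). The ages were not called different (log2 difference -0.03 ± 0.24, adjusted p = 0.942). The antisense gene Gm45875 overlaps 8.01% of its exon bases in GENCODE M21. The upstream window of Kcnk1, printed above, is from the reference line and shows nothing of how the lines differ there.

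Kcnk6 (ENSMUSG00000046410, chromosome 7), encoding TWIK2, a channel known from vessels and from macrophages, was the most abundant of the family. It measured 30.5, 33.4 and 30.6 CPM in BPN/3J, 28.7, 47.3 and 43.4 CPM at 4 weeks, and 28.0, 26.8 and 20.2 CPM in 22-week BPH/2J. It fell 1.59-fold with age (log2 difference -0.67 ± 0.17, adjusted p = 0.0104, and -0.86 without 4-week replicate 1, adjusted p = 0.000203), with the 4-week replicate 1 just above the highest 22-week library. The lines at 22 weeks differed by -0.33 on the log2 scale (adjusted p = 0.151) without overlapping, and this passed without 4-week replicate 1 (-0.33, adjusted p = 0.0297) and when only the 2 groups were fitted (-0.34, adjusted p = 0.037). Against BPN/3J the 4-week group was 0.34 higher (adjusted p = 0.12), or 0.53 without 4-week replicate 1 (adjusted p = 0.00323). All 8 genes of the macrophage list were called lower with age, against 21.1% of all genes tested. The list summed to 261 to 437 CPM at 4 weeks and 118 to 132 CPM at 22 weeks, with 201 to 337 CPM in BPN/3J. Its part in the Kcnk6 result was not tested.

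Kcnk5 (TASK2), which opens at alkaline pH, was lower in both BPH/2J groups. It measured 3.68, 4.2 and 3.54 CPM in BPN/3J, 0.848, 1.79 and 1.69 CPM at 4 weeks, and 2.5, 1.64 and 1.97 CPM in 22-week BPH/2J. The difference was 1.87-fold at 22 weeks (adjusted p = 0.0169, and 0.0556 to 0.0634 without BPN/3J replicate 2 or 22-week BPH/2J replicate 2 or 3) and 2.64-fold at 4 weeks (adjusted p = 0.00112). Kcnk3 (TASK1), closed by acid, was at 2.84, 3.41 and 4.03 CPM in BPN/3J, 1.99, 2.41 and 2.06 CPM at 4 weeks, and 2.66, 1.96 and 2.55 CPM in 22-week BPH/2J. The 22-week lines did not overlap but just missed the threshold (log2 difference -0.52 ± 0.19, adjusted p = 0.0509). Under 5 alternatives this difference passed (0.0339 to 0.0472), among them the fit without 4-week replicate 1 (0.0441). The 4-week group was 1.59-fold lower than BPN/3J (adjusted p = 0.0126, and 0.0536 without BPN/3J replicate 3). Kcnk2 (TREK1), a stretch- and lipid-sensitive channel, depended on 1 library: the 4-week replicates were at 3.59, 1.38 and 1.35 CPM, against 3.08, 2.45 and 3.8 CPM in 22-week BPH/2J and 2.43, 3.37 and 3.26 CPM in BPN/3J. It was not called in any comparison of all libraries. Without 4-week replicate 1 it was 1.19 higher at 22 than at 4 weeks on the log2 scale (adjusted p = 0.00255) and 1.14 lower at 4 weeks than in BPN/3J (a log2 difference of -1.14, adjusted p = 0.00258). The antisense gene A430027H14Rik overlaps 12.2% of the Kcnk2 exon bases in GENCODE M21. Kcnk7 was the other member called lower in 22-week BPH/2J (log2 difference -1.22, adjusted p = 0.0408), a call lost without BPN/3J replicate 2 or 3, 4-week replicate 2 or any 22-week BPH/2J library, with library totals alone and with a replicate block. It was not tested under the filter of 1 CPM in 3 libraries.

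Of the 7 pore-forming calcium- or sodium-activated subunits 5 were tested, and 4 of these were higher at 22 than at 4 weeks in BPH/2J and 0 lower, with a median log2 difference of 0.9 against 0.01 over all genes. Over all genes tested 19.9% were called higher in this comparison, and without 22-week replicate 1 or 4-week replicate 2 the count was 2, with Kcnn3 and Kcnt1 lost in both. Against BPN/3J at the same age 0 were higher and 2 lower (median -0.24), 40.0% called against 38.0% of all genes. The lower ones numbered 0 without BPN/3J replicate 3 or 22-week BPH/2J replicate 3 and 1 without 22-week BPH/2J replicate 1, and 1 member was higher without BPN/3J replicate 2 or 22-week BPH/2J replicate 2. Against BPN/3J the 4-week group had 0 higher and 3 lower (median -1.42), 60.0% called against 53.1% of all genes. The family's summed level was lowest in the 4-week libraries, at 2.43, 1.71 and 2.07 RPKM, against 4.55, 3.32 and 4.16 RPKM in 22-week BPH/2J and 4.02, 4.17 and 4.96 RPKM in BPN/3J.

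Kcnn4 and Kcnn3 encode the intermediate- and small-conductance channels known to drive endothelial calcium-dependent hyperpolarization. Kcnn4 (ENSMUSG00000054342, chromosome 7) measured 1.28, 2.12 and 1.51 CPM in BPN/3J, 1.47, 1.17 and 1.01 CPM at 4 weeks, and 2.27, 2.19 and 2.35 CPM in 22-week BPH/2J. All 22-week BPH/2J libraries were above all others, and the difference from 4 weeks was 1.86-fold (log2 difference 0.9 ± 0.22, adjusted p = 0.00929). The difference between the 22-week lines was 0.47 ± 0.22 on the log2 scale (adjusted p = 0.113, and 0.0403 without BPN/3J replicate 2). Kcnn4 is also known from lymphocytes. Of the 8 lymphocyte markers 5 were higher and 0 lower at 22 weeks, where all genes tested had 19.9% higher and 21.1% lower. The markers summed to 30.0 to 45.7 CPM at 4 weeks, 41.4 to 87.4 CPM at 22 weeks and 46.0 to 50.6 CPM in BPN/3J. Their part in the result was not tested.

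Kcnn3 (ENSMUSG00000000794, chromosome 3) was at 1.15, 1.29 and 1.33 CPM in BPN/3J, 1.17, 1.0 and 1.26 CPM at 4 weeks, and 2.3, 1.38 and 1.71 CPM in 22-week BPH/2J. The 22-week BPH/2J libraries lay above the rest by a narrow margin, and the difference from 4 weeks was 1.57-fold (log2 difference 0.65 ± 0.23, adjusted p = 0.0414). That call was lost without any of the libraries other than 22-week BPH/2J replicate 2 (adjusted p 0.0523 to 0.176), with DESeq2 (0.0562), with limma-voom (0.051), when only the 2 groups were fitted (0.0703) and with a replicate block (0.0587). The lines at 22 weeks differed by 0.52 ± 0.22 (adjusted p = 0.0938, and 0.049 without 22-week BPH/2J replicate 2). Kcnn2 had 3 to 11 counts and Kcnma1, the pore of the large-conductance BK channel of smooth muscle, 3 to 10 counts per library, and neither was tested.

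Kcnt1 (Slack) and Kcnt2 (Slick), the sodium-activated channels, were both lowest at 4 weeks. Kcnt1 was at 11.8, 11.5 and 16.3 CPM in BPN/3J, 5.02, 3.96 and 5.8 CPM at 4 weeks, and 9.86, 7.69 and 6.64 CPM in 22-week BPH/2J. The 3 groups did not overlap. Kcnt1 was 1.64-fold lower in BPH/2J at 22 weeks (adjusted p = 0.0146, and 0.0613 to 0.0651 without BPN/3J replicate 3 or 22-week BPH/2J replicate 3) and 1.63-fold higher at 22 than at 4 weeks (adjusted p = 0.0172, and 0.0635 to 0.0732 without 4-week replicate 2 or 22-week replicate 1). Kcnt2 was at 8.61, 8.41 and 9.65 CPM in BPN/3J, 4.21, 2.17 and 2.64 CPM at 4 weeks, and 8.14, 4.6 and 9.76 CPM in 22-week BPH/2J. It rose 2.49-fold with age (adjusted p = 0.00457), and the difference between the 22-week lines was not called (log2 difference -0.24, adjusted p = 0.495). Kcnn1 was the other member of the family called lower in 22-week BPH/2J (log2 difference -1.02, adjusted p = 0.0159), a call lost with DESeq2 and without BPN/3J replicate 3 or 22-week BPH/2J replicate 1 or 3. It was not tested under the filter of 1 CPM in 3 libraries.

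The 12 accessory subunits, of which 10 were tested, modify channels formed by other genes. Between the 22-week lines 1 was higher and 2 lower in BPH/2J (median log2 difference -0.16), and with age 1 was higher and 2 lower (median 0.04). In each comparison this was 30.0% of those tested, against 38.0% of all genes between the lines and 41.0% with age. The calls between the lines depended on single libraries: 0 were higher without BPN/3J replicate 1 or 2 or 22-week BPH/2J replicate 1 or 3, and 2 without 4-week replicate 1. The lower ones numbered 0 without BPN/3J replicate 3 and 1 without any other library of the 22-week groups. With age 2 were higher without 22-week replicate 1.

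Kcne3, a single-span subunit that holds Kcnq1 channels open, had the greatest fall with age of all 51 tested members. It measured 2.73, 1.63 and 2.14 CPM in BPN/3J, 6.49, 10.7 and 13.6 CPM at 4 weeks, and 2.27, 2.7 and 2.55 CPM in 22-week BPH/2J. The 4-week libraries were all above the others, with replicate 1 the lowest of them. Kcne3 fell by 2.03 ± 0.27 on the log2 scale from 4 to 22 weeks (4.09-fold, adjusted p = 0.000227) and was 4.72-fold higher at 4 weeks than in BPN/3J (adjusted p = 6.38e-05). The 22-week lines differed by 0.21 ± 0.29 (adjusted p = 0.599). Kcnq1, its pore-forming partner, was likewise highest at 4 weeks, as given above. The macrophage list fell with age, as described for Kcnk6, and its part in the Kcne3 result was not tested. Kcne4, which inhibits Kv1 and Kv7 channels, was at 6.79, 7.37 and 6.25 CPM in BPN/3J, 4.11, 3.76 and 5.19 CPM at 4 weeks, and 5.35, 3.86 and 5.22 CPM in 22-week BPH/2J. It was 1.41-fold lower in BPH/2J at 22 weeks (adjusted p = 0.0378), a call lost without any BPN/3J library or without 22-week BPH/2J replicate 2 or 3 (0.0538 to 0.126), with library totals alone (0.0596) and with a replicate block (0.05). At 4 weeks it was 1.56-fold lower than in BPN/3J (adjusted p = 0.00853).

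Kcnab1 and Kcnab2 encode cytoplasmic beta subunits of Kv1 channels such as that of Kcna5. Kcnab1 was at 5.91, 5.91 and 7.05 CPM in BPN/3J, 10.6, 8.76 and 9.12 CPM at 4 weeks, and 9.5, 7.21 and 9.63 CPM in 22-week BPH/2J. BPN/3J lay below both BPH/2J groups, by 1.4-fold at 22 weeks (adjusted p = 0.0232, and 0.0719 to 0.0815 without BPN/3J replicate 1 or 2 or 22-week BPH/2J replicate 1 or 3) and 1.51-fold at 4 weeks (adjusted p = 0.00533). Kcnab1 and Kcna5 thus differed between the lines in opposite directions. Kcnab2 was at 4.02, 3.58 and 3.12 CPM in BPN/3J, 5.51, 4.1 and 5.25 CPM at 4 weeks, and 3.31, 3.48 and 4.61 CPM in 22-week BPH/2J. Its single call, 1.39-fold higher at 4 weeks than in BPN/3J (adjusted p = 0.047), was lost without BPN/3J replicate 2 or 3, 4-week replicate 1 or 3, or 22-week BPH/2J replicate 1 or 2 (0.0527 to 0.146). It was also lost under 5 other settings (0.0502 to 0.0685).

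Kcnip3, a calcium sensor of the Kv4 channels that also acts as a transcriptional repressor, was at 3.68, 4.1 and 4.32 CPM in BPN/3J, 0.881, 0.827 and 1.01 CPM at 4 weeks, and 2.01, 1.26 and 3.03 CPM in 22-week BPH/2J. The 3 groups did not overlap, with the 4-week group lowest. It was 1.92-fold lower in BPH/2J at 22 weeks (adjusted p = 0.0164, and 0.0536 to 0.0542 without BPN/3J replicate 3 or 22-week BPH/2J replicate 1), and rose 2.3-fold between 4 and 22 weeks (adjusted p = 0.00857). The BK beta subunit of smooth muscle, Kcnmb1, ranged from 2.84 to 4.1 CPM over the BPN/3J libraries, 2.38 to 3.13 CPM over the 4-week and 2.64 to 3.24 CPM over the 22-week BPH/2J libraries, with no call. Kcnmb4, the BK beta subunit best known from neurons, was at 0.135, 0.347 and 0.246 CPM in BPN/3J, 1.24, 0.552 and 0.614 CPM at 4 weeks, and 0.13, 0.322 and 0.193 CPM in 22-week BPH/2J. It fell 3.68-fold with age (adjusted p = 0.00822), and the antisense genes Kcnmb4os1 and Kcnmb4os2 overlap 10.7% and 20.8% of its exon bases, so its value is uncertain.

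Summed over the members on the RPKM scale, the levels were 172, 176 and 175 in BPN/3J, 131, 180 and 169 in 4-week BPH/2J, and 128, 141 and 123 in 22-week BPH/2J. The 22-week BPH/2J libraries lay below the BPN/3J libraries without overlap. Without Kcna5 the BPN/3J libraries were lowest, at 53.1, 53.8 and 58.8 RPKM, against 73.4, 80.8 and 82.6 at 4 weeks and 71.0, 68.1 and 68.9 in 22-week BPH/2J. The 22-week BPH/2J libraries stayed below the 4-week ones. Kcna5 made up 68.4% ± 1.7 (SD, n = 3) of the sum in BPN/3J, 50.0% ± 5.74 at 4 weeks and 46.8% ± 4.36 in 22-week BPH/2J. The inward rectifiers summed to 12.1 ± 0.833 RPKM in BPN/3J, 21.5 ± 1.41 at 4 weeks and 18.5 ± 1.0 in 22-week BPH/2J, and the accessory subunits to 9.35 ± 0.383, 13.9 ± 2.64 and 8.5 ± 0.741. These sums are descriptions and were not tested.

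**Figure D4:**
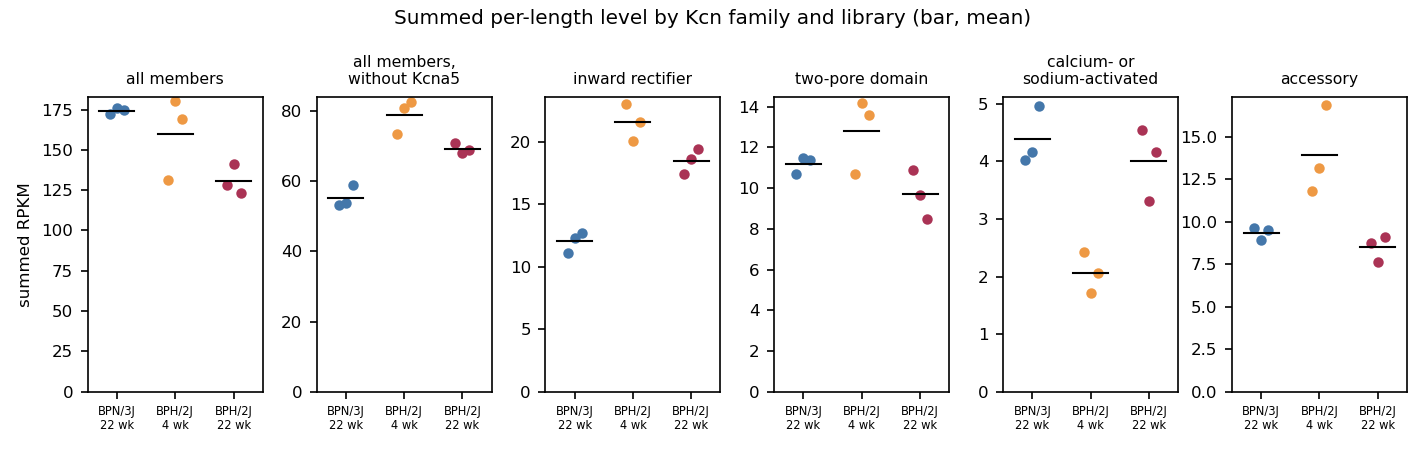
Summed RPKM (vertical axes, each from 0) of all Kcn genes, of all but Kcna5, and of 4 families, in each library (points) with the group mean (bar). All members sum highest in BPN/3J, apart from a single library at 4 weeks, while without Kcna5 BPN/3J is lowest, and the calcium- and sodium-activated family is lowest at 4 weeks.

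Of 32 listed genes that work with these channels under other names, 24 were in the table and 23 were tested. Between the 22-week lines 2 were higher and 4 lower in BPH/2J, where all genes tested had 19.8% higher and 18.2% lower. With age 1 was higher and 9 lower, where all genes had 19.9% and 21.1%. Between the lines there were 4 higher without 4-week replicate 1 and 2 lower without 22-week replicate 3, and with age 5 lower without 22-week replicate 1, 3 higher without 4-week replicate 1 and 2 higher without 22-week replicate 2. All 3 calmodulin genes, whose product is the calcium sensor of the Kcnn channels, fell between 4 and 22 weeks in BPH/2J, while Kcnn4 and Kcnn3 were higher. Lrrc55, a BK gamma subunit, averaged 0.724 CPM in BPN/3J, 3.4 CPM at 4 weeks and 1.71 CPM in 22-week BPH/2J, with log2 differences of 1.23 between the 22-week lines (adjusted p = 0.0114) and -0.99 between the ages (adjusted p = 0.0138). Sgk1, a kinase that promotes the surface level of several channels, was at 1370 ± 152 CPM (SD, n = 3) in BPN/3J, 785 ± 111 CPM at 4 weeks and 630 ± 33.7 CPM in 22-week BPH/2J, a difference between the 22-week lines of -1.12 on the log2 scale (adjusted p = 5.03e-05).

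The 13 members that were not tested included Kcnj13, Kcnn2, Kcnk4, Kcnj3, Kcnma1, Kcnip1, Kcnj16, Kcne1, Kcnv2, Kcng4, Kcnc1 and Kcnh7. Among them Kcnv2, an electrically silent subunit, had 3, 10 and 4 counts in BPN/3J, 5, 3 and 5 in 22-week BPH/2J and none in the 4-week libraries, which allows up to 3 counts in each. With no low-count filter Kcnv2 was called in both comparisons with the 4-week group. The authors' deposited table also had it lower at 4 weeks, with false discovery rates of 0.00049 against 22-week BPH/2J and 2.9e-05 against BPN/3J. Kcnj11 and Kcnq1ot1 were not analysed here. In the authors' deposited table of the same comparisons, 8 members were higher and 13 lower in 22-week BPH/2J than in BPN/3J at an adjusted p under 0.05, and all 18 calls made here were among them. With age the authors' deposited table had 12 higher and 12 lower, and again held all 18 calls made here.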

How the data were processed

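The authors deposited 1 table of 18094 genes with raw read counts per gene and library, the gene length in bases, CPM values, and the log2 fold changes, p-values and false discovery rates of their own comparisons, per the file headers. Every gene in it had at least 10 counts over the 9 libraries. The submitters' processing notes name CASAVA 1.8.2, TopHat2 2.0.13, Bowtie2 2.24, featureCounts, edgeR and the mm9 build. The strand setting and annotation release of the counting are not stated in the sources used here.

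Deposited counts were filtered (filterByExpr), scaled by TMM and fitted once on the 3 groups with edgeR 4.0.16 (quasi-likelihood F test, R 4.3.3, Benjamini-Hochberg over 15277 genes, threshold 0.05). CPM in the text are TMM-scaled, RPKM were computed from the counts, library totals and deposited lengths, and log2 differences carry standard errors. The procedure was tested on simulated data. The members, gene families, partner and marker lists were chosen with earlier results of these data known, so members were described by counts and medians beside all genes and given no test as a list. Members were described in full if they were among the 10 largest called rises or falls in the line or age comparison with at least 1 CPM in the higher group, among the 10 highest by mean RPKM, or on a list of subunits known in endothelium or vessel wall, of which Kcnj11 and Kcnq1ot1 were not analysed here. Some members are counted but not reported by name here. Members outside that rule (Kcnh2, Kcna1, Kcnk7, Kcnn1 and Kcnv2) were named after their values were seen. Alternatives were other scalings, filters, tests (DESeq2 1.42.0, limma-voom 3.58.1), a 0.01 threshold, a replicate block, fits of only the groups compared, and leaving out each library. Exon overlaps came from GENCODE M21 and upstream windows from RefSeq, both of build GRCm38. The annotation used for the counting was not stated, so the overlap shares may not describe the exons that were counted.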

Additional observations from a re-analysis of the deposited data

How the results depend on the processing

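No called difference of a member chosen by the naming rule changed direction under any alternative. Calls of those members were followed over every alternative in which the member was tested. Between the 22-week lines 8 of 16 were kept, between the ages 9 of 17, and between 4-week BPH/2J and BPN/3J 19 of 23. Of those kept, Kcnh1 between the lines was not tested under the filter of 1 CPM in 3 libraries. The same held for Kcnmb4 between the ages and between 4-week BPH/2J and BPN/3J. At a threshold of 0.01, all genes gave 1738 higher and 1694 lower calls between the lines and 1789 and 2082 between the ages. The members gave 7 higher and 1 lower between the lines and 4 higher and 5 lower between the ages. Leaving out each library gave 2 to 14 members lower between the lines and 5 to 9 higher between the ages. With library totals alone, all genes gave 3849 higher and 2305 lower calls between the lines, against 3024 and 2786 with TMM. No pairing by replicate number was visible: residuals of same-numbered libraries correlated at -0.161 to 0.077, and those of differently numbered libraries at -0.117 to 0.136. With 3 libraries per group this check cannot settle whether the numbers mark a pairing. A replicate block called 15, 17 and 27 members in the line, age and 4-week comparisons, of which 15, 16 and 25 were also called without it. Some differences that were not called changed sign under an alternative, and they are given with their range over all alternatives. Between the lines they were Kcnq1 (-0.11 to 0.05, and 0.0034 with library totals), Kcnt2 (-0.47 to 0.01), Kcnj15 (-0.12 to 0.22) and Kcnj8 (-0.06 to 0.25). Kcnmb1 (-0.26 to 0.02), Kcnmb4 (-0.57 to 0.18), Kcnk2 (-0.12 to 0.19) and Kcnab2 (-0.07 to 0.18) also changed sign between the lines. Between the ages they were Kcnk1 (-0.28 to 0.17, 0.0039 with upper-quartile scaling and 0.02 with library totals), Kcnh1 (-0.34 to 0.71), Kcnab1 (-0.18 to 0.02) and Kcnmb1 (-0.06 to 0.14), and at 4 weeks against BPN/3J Kcns3 (-0.86 to 0.06). The cause was not tested. About 3 counts limit what a library of this depth can show, which bears on Kcnk1 in BPN/3J and on the 13 members not tested.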
